A study of Mus musculus with 27 samples.

Results

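The histone mark H3K27ac was compared across the genome of mouse Kupffer cells between a NASH diet and a control diet. The members are all 70300 windows of the deposited H3K27ac table, taken without any selection by value, and 35947 of them held enough tags to be tested. The windows lie nearest to 16038 genes, of which 11593 were tested on their summed tags. The study profiled liver macrophages of C57BL/6J mice on both diets by chromatin immunoprecipitation sequencing, in which DNA bound to a chosen protein is sequenced. Of the 27 samples in the series, 4 are H3K27ac libraries of F4/80-Hi Tim4-Pos Kupffer cells, 2 from mice on the control diet and 2 from mice on the NASH diet. The labels give no allele beside the C57BL/6J background, and all livers were digested with flavopiridol, a transcription inhibitor. The labels give neither the diet's composition nor its duration, and no age. They do not say whether the 2 libraries of a diet came from separate animals, so the p-values reflect only how far libraries of 1 diet differ, and that difference may be technical.

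Acetylation of lysine 27 of histone H3 is laid down by the acetyltransferases P300 and CBP on active promoters and enhancers, and its level at an enhancer tends to follow the enhancer's activity. Kupffer cells are the resident macrophages of the liver sinusoids. They clear bacteria, aged blood cells and modified lipoproteins, and their identity is held by lineage factors together with nuclear receptors such as LXR. Steatohepatitis (NASH) is a fatty liver disease with inflammation and fibrosis, in which resident macrophages take on other gene programs.

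Each window is about 205 bp long (median) and comes from lists of open chromatin. Its value is the number of tags per 10000000 sequenced. The libraries hold between 9468035 and 22615879 tags, of which 7.91% to 9.60% lie in the windows, and replicates of a diet correlated at 0.887 (control) and 0.905 (NASH) over windows. Where a library has no tag in a window, up to 3 tags remain possible, or 1.33 to 3.17 normalised tags by library. The median gene moved by -0.29 and the median window by -0.26 on the log2 scale under the authors' scaling. Log2 changes below are therefore NASH over control relative to that median, on the log2(value + 1) scale, with adjusted p-values from limma over all windows or genes tested, printed for the authors' scaling. A window was called when its adjusted p was under 0.05 and its change at least 1 on the log2 scale, in 1 direction, under both the authors' scaling and TMM scaling. A gene needed the adjusted p alone, under both scalings. A single window over satellite repeats on chromosome 2, at chr2:98667086-98667288, took 2.39% to 2.44% of the window tags in control and 4.02% to 5.17% in NASH libraries.

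Few promoters were called, and 5 of those that were are shown with their sequence from RefSeq (build GRCm38.p6). They are 3 raised and 2 lowered promoters, for the AP-1 letters in 4 of them and for the pair of adenylyl cyclases, Adcy7 and Adcy4, which make cyclic AMP and moved in opposite directions. Each line gives the 250 bases before the start, 5′ to 3′ on the gene's strand, with matches to TGANTCA, the AP-1 motif, in capitals.
Adcy7: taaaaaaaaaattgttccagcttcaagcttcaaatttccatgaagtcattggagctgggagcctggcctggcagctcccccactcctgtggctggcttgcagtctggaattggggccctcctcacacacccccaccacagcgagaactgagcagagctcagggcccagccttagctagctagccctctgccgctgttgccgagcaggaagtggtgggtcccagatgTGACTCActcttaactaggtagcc
Sgms1: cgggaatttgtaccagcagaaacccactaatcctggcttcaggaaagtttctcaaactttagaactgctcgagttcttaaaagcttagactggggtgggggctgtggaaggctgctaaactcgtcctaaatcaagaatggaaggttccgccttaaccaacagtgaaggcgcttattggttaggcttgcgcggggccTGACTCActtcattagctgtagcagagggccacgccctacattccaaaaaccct
Agpat4: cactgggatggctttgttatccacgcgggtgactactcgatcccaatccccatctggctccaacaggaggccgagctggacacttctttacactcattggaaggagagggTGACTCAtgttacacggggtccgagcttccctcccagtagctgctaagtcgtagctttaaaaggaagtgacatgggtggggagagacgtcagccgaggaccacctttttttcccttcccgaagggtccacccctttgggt
Sema4c: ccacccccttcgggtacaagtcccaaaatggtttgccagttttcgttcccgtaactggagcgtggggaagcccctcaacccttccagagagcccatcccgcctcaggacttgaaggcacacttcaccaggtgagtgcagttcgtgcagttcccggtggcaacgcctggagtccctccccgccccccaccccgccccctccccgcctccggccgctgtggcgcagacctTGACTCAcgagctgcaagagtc
Adcy4: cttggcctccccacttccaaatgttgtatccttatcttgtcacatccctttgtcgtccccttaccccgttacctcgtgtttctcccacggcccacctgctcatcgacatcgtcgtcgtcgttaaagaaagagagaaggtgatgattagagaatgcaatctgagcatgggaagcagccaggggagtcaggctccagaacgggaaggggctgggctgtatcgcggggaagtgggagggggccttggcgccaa

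These promoters lie at chr8:88288816-88289065 (Adcy7, plus strand), chr19:32211014-32211263 (Sgms1, minus), chr17:12119034-12119283 (Agpat4, plus), chr1:36558382-36558631 (Sema4c, minus) and chr14:55784073-55784322 (Adcy4, minus). The match begins 24 bases before the start in Adcy7, 54 in Sgms1, 140 in Agpat4 and 22 in Sema4c, and Adcy4 has none in this stretch. The window on the Adcy7 promoter rose from 4.22 and 14.59 normalised tags in control to 43.73 and 40.56 in NASH libraries (log2 change 2.52, adjusted p = 0.00401). The window on the Adcy4 promoter went the other way, from 23.24 and 23.43 to 1.07 and 2.60 (-2.90, adjusted p = 0.00117). At Sgms1, which encodes a sphingomyelin synthase, the promoter window rose from 5.28 and 4.86 to 16.53 and 16.12 (1.77, adjusted p = 0.0443). At Agpat4, an acyltransferase of phospholipid synthesis, it went from 1.06 and 3.98 to 13.33 and 9.36 (2.19, adjusted p = 0.0473), though the gene's summed call was lost without NASH library 1 (1.23). The Sema4c window, at a semaphorin gene, fell from 48.58 and 29.18 to 9.07 and 7.28 (-1.82, adjusted p = 0.00255), and its summed call was lost without NASH library 2 (-0.75). The 5 windows were shown because they were called, so the gap between the diets in each follows from the choice.

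Across the genome 720 windows were raised and 902 lowered in NASH Kupffer cells, which is 2.0% and 2.51% of those tested. The raised windows went from a median of 3.22 normalised tags in control to 19.0 in NASH, and the lowered ones from 20.0 to 3.44. The median change of the raised windows was 2.45, or 2.37 with the 42 windows that had no control tag set to their bound. That of the lowered windows was -1.95 both as fitted and with the 25 windows without a NASH tag at their bound. The values of the diets did not overlap in any of the 1622 called windows, nor in 53.0% of all tested windows. Under the authors' scaling alone 2.0% of the tested windows were raised and 4.59% lowered, and under TMM alone 3.31% and 2.51%. The raised share of the called windows was 30.4% in the former and 56.9% in the latter, so the balance between the directions rests on the scaling.

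Promoters seldom changed. Windows on promoters near a start site were raised in 65 and lowered in 105 of 10483 cases (0.620% and 1.00%). Windows between genes were raised in 284 and lowered in 290 of 8365 (3.40% and 3.47%), and introns held 331 raised and 429 lowered windows of 14490. Among tested windows the called share was higher in each bin farther from a start site. It ran from 0.912% raised and 1.26% lowered within 1 kb to 4.97% and 6.51% beyond 100 kb. The filter kept 15245 of 20722 windows within 1 kb but 1228 of 4584 beyond 100 kb. It kept 10483 of 14795 on promoters but 8365 of 22079 between genes. Of the 20722, 139 were raised and 192 lowered, and of the 4584, 61 and 80. A window low in 1 diet could pass through the other, so the shares depend on which windows entered.

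RefSeq promoters, each 250 bases before to 50 after a start, were matched to the tested windows by position. Of 32851 promoters, 8117 overlapped a tested window, among them 55 promoters of 49 genes on a raised window and 69 promoters of 63 genes on a lowered one. Of 13 motifs searched on both strands, TGANTCA, which reads the same on either strand apart from its free base, was present in 12 of the 55 promoters on raised windows (21.8%, 11 genes). It was present in 4 of 69 on lowered windows (5.80%), in 387 of 7993 on tested windows that were not called (4.84%) and in 2565 of all 32851 (7.81%). Counting the part of a promoter inside the window alone, the shares were 18.2%, 5.80% and 3.05%. The GC box GGGCGG was in 45.5% of promoters on raised, 58.0% on lowered and 66.1% on windows not called. The antioxidant response letters TGACNNNGC were in 18.2%, 5.80% and 15.4%, and inside the window in 7.27%, 4.35% and 11.0%. TGATGNAA, the amino acid response element, was in 6 of 55, 0 of 69 and 171 of 7993, and inside the window in 1, 0 and 82. TGACGTCA, the CRE motif, was in 3 of 55 (5.45%), 0 of 69 and 351 of 7993 (4.39%), and inside the window in 3, 0 and 319. TCATGTGA, the M-box, was in 3 of 55 (5.45%), 0 of 69 and 68 of 7993 (0.851%), and inside the window in 3, 0 and 46. The shares of the other motifs searched are not given. Some of these promoters are alternative starts of 1 gene and share bases, and the shares are descriptions without a test.

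The called shares of tested windows differed between the lists of open chromatin from which the windows were made. Windows from the list of the 20-week diet alone were raised in 282 and lowered in 15 of 2074 cases (13.6% and 0.723%). Windows from the control list alone were raised in 63 and lowered in 526 of 7972 (0.790% and 6.60%). Windows on both lists were raised in 375 and lowered in 361 of 25901 (1.45% and 1.39%). The filter kept 2074 of 6836 windows of the 20-week list alone, 7972 of 19796 of the control list alone and 25901 of 43668 on both. A window low in 1 diet could pass the filter through the other diet, so part of these shares follows from the choice. The mark and open chromatin are separate assays, yet windows raised while listed as open in control alone also occurred, among them those of Cxcr4 and Slc16a1 below.

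Sites of 3 factors measured in the same cells, LXR, ATF3 and P300, were compared with the called windows by at least 1 bp of overlap. ATF3 is a stress-induced factor that binds AP-1 and CRE letters, and P300 is an acetyltransferase that writes the mark. Raised windows held an ATF3 site of the NASH list in 57.6% of cases and one of the control list in 8.61%, beside 46.7% and 26.6% of all tested windows. Lowered windows held an ATF3 site in 18.8% (NASH list) and 17.3% (control list). P300 sites were in 63.9% (NASH list) and 9.58% (control list) of raised windows, and in 41.0% and 31.5% of lowered windows. LXR sites were in 56.8% (NASH list) and 22.9% (control list) of raised windows, against 42.8% and 56.5% of lowered ones. For all 3 factors the raised windows held more sites of the NASH list than of the control list. For LXR the lowered windows held more sites of the control list, whereas for P300 they held more of the NASH list. Across all tested windows 62.8% held an LXR site of the control list and 65.9% one of the NASH list, and the same shares were 45.2% and 69.7% for P300, so the lists differ in how many windows they cover.

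**Figure D1:**
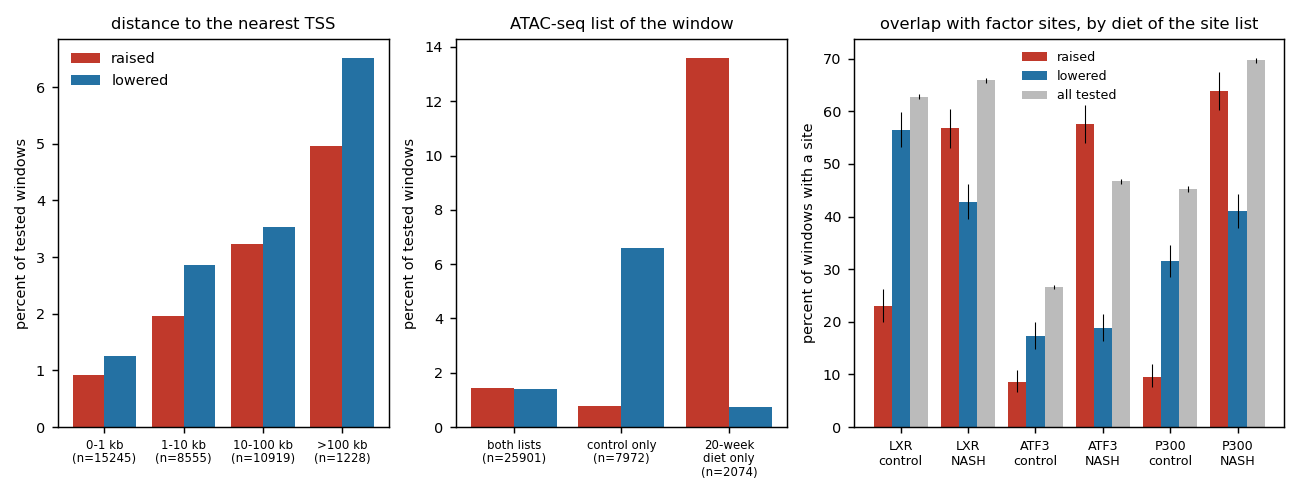
Percent of tested windows raised or lowered by distance to the nearest start site (left) and by the open chromatin list of the window (middle), and percent of raised, lowered and all tested windows that overlap a factor site (right, bars with 95% exact binomial intervals, counting error only). Of the tested windows, those beyond 100 kb were called most often of the 4 bins, and 13.6% of those listed in the 20-week diet alone were raised. The share of windows that passed the filter differed between the bins and between the lists.

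Many called windows were neighbours in the order of tested windows. Of the raised windows 346 (48.1%), and of the lowered windows 390 (43.2%), stood next to another called in the same direction. No uncalled tested window lay between them. No distance limit was set, so such a stretch can cross genes. One of 5 lowered windows, at Zfp64, Tshz2 and AY702102, spanned 973 kb. The share to be met without any clustering was not computed. The longest stretches had 8 windows. One was raised, at Xylt1 (chr7:117428729-117490796, 62.1 kb), and one lowered, near Aebp2 (chr6:140750448-140768475, 18.03 kb). At least 3 raised windows were assigned to each of 61 genes and at least 3 lowered ones to each of 67.

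**Figure D2:**
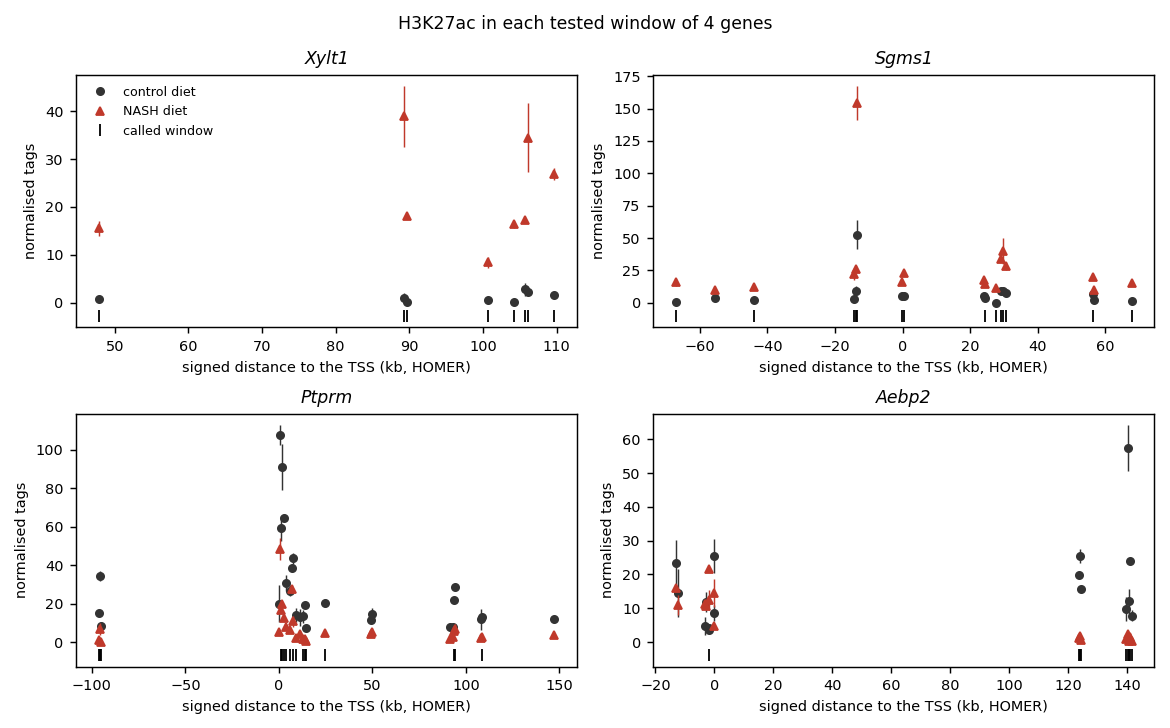
H3K27ac in every tested window of Xylt1, Sgms1, Ptprm and Aebp2, as normalised tags against the signed distance to the start site in kb. Points are diet means, vertical lines join the 2 libraries, and ticks mark called windows. All 8 Xylt1 windows were raised and 17 of 27 Ptprm windows lowered, while Aebp2 had 1 raised and 8 lowered.

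On summed tags 335 genes were raised and 717 lowered (2.89% and 6.18% of 11593). The authors' scaling alone gave 2.89% and 11.0%, and TMM alone 7.25% and 6.19%, so the raised share of the called genes was 20.8% and 53.9%. Leaving aside 371 genes on marker and program lists (Kupffer cell identity, LXR targets, inflammatory and lipid-associated genes and other cell types), 307 of 11222 were raised (2.74%) and 682 lowered (6.08%). A gene here is the nearest start site given by the authors' annotation, and a window may act on another gene. Either direction was called for 8.81%. Described next are 12 raised and 12 lowered genes, ranked by adjusted p outside those lists, and those with the most called windows.

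Xylt1, which encodes the xylosyltransferase that starts glycosaminoglycan chains on proteoglycans, was the most raised of these. Its windows summed to 15.84 and 10.61 normalised tags in control and 180.8 and 206.4 in NASH libraries (log2 change 4.08, SE 0.27, adjusted p = 1.47e-08). All 8 tested windows rose, each in an intron and at least 47850 bp from the start. The best of them, in an intron at chr7:117470187-117470387, went from 2.11 and 0 to 32.53 and 45.24 and held LXR, ATF3 and P300 sites of the NASH lists and none of the control lists. Chst11, a sulfotransferase that acts on chondroitin chains, also rose, from 6.34 and 7.94 to 72.54 and 61.36 (3.35, SE 0.35, adjusted p = 5.98e-06). Its best window lies 491 bp before the start, at chr10:82984874-82985139, and rose from 1.06 and 0.88 to 29.33 and 18.20.

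Slc7a11, the light chain of the cystine and glutamate exchanger that feeds glutathione synthesis, rose from 9.53 and 8.84 to 140.3 and 111.3 (3.91, SE 0.29, adjusted p = 9.97e-08). Of its 8 tested windows 7 rose, over 226 kb. Slc16a1, the monocarboxylate transporter for lactate and pyruvate, rose from 29.57 and 17.24 to 114.1 and 103.5 (2.50, SE 0.28, adjusted p = 2.21e-05). Most of that lay in 1 promoter window, chr3:104638176-104638376, which went from 20.07 and 13.71 to 92.27 and 79.56. Both genes encode plasma membrane carriers, and neither best window overlapped a listed LXR, ATF3 or P300 site.

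Sgms1 makes sphingomyelin from ceramide in the Golgi. Its windows summed to 158.4 and 144.6 in control and 533.3 and 533.5 in NASH libraries (2.10, SE 0.14, adjusted p = 3.55e-08), and 14 of 17 rose, the largest number of raised windows at any of these genes. Its best window, chr19:32224420-32224643, went from 41.19 and 63.67 to 141.3 and 167.4. Synj2, a phosphoinositide phosphatase of membrane traffic, had 8 of 12 windows raised and rose from 125.7 and 100.8 to 303.0 and 261.6 (1.60, SE 0.17, adjusted p = 2.92e-05). Dennd4c, an exchange factor for Rab GTPases, rose from 44.37 and 38.03 to 138.1 and 145.1 (2.05, SE 0.22, adjusted p = 1.98e-05). Its best window, chr4:86713035-86713235, lies at -35420 bp from the start with no control tag and 27.73 and 40.04 NASH tags, at least 15.1-fold higher against a floor of 3 tags per library. It belongs to a stretch of 6 raised windows over 41.5 kb that is shared with Plin2, the lipid droplet coat gene next to it.

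Cxcr4, the receptor of the chemokine CXCL12, rose from 82.38 and 91.08 to 265.6 and 303.7 (1.99, SE 0.17, adjusted p = 1.77e-06) with 7 of 13 windows raised. The best one sits in the first intron 290 bp after the start, at chr1:128591909-128592109, and went from 7.39 and 1.77 to 35.73 and 44.20. Sh3pxd2b, a scaffold of podosomes, rose from 26.42 and 15.91 to 142.4 and 128.4 (2.95, SE 0.27, adjusted p = 2.03e-06). Myo3b, an unconventional myosin with a kinase domain, rose from 8.45 and 9.29 to 112.0 and 82.68 (3.59, SE 0.31, adjusted p = 9.25e-07), by 3 windows within 1.17 kb of an intron.

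Glipr1, a protein of the CAP family, rose from 44.35 and 75.17 to 209.6 and 193.4 (2.07, SE 0.22), with all 5 tested windows raised. Unc93a, a membrane protein of the UNC93 family, rose from 15.84 and 13.71 to 94.40 and 71.24 (2.68, SE 0.30). Nenf, a secreted heme-binding protein, had 6 of 9 windows raised (1.29, SE 0.19), but the sum within 1000 bp of its start was lower in NASH (-0.88). Lrrc4c also passed the test at 1.00, with sums of 32698 and 29827 in control and 47131 and 55479 in NASH libraries. The satellite window can hold only part of these tags, and the call was kept without that window. No window of Lrrc4c was called, and the source of its other tags was not tested.

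Lowered genes need tags in control to be called, so control values above those of raised genes follow from the choice. Ptprm, a receptor tyrosine phosphatase that binds itself between neighbouring cells, had the smallest adjusted p outside the marker lists under the authors' scaling, though not under TMM (1.78e-09, against 1.99e-15 for Xylt1). Its windows summed to 779.5 and 787.9 in control and 222.9 and 214.2 in NASH libraries (-1.55, SE 0.12, adjusted p = 6.72e-09), with 17 of 27 windows lowered over 205 kb. The best window is in the first intron at chr17:67352547-67352747 and fell from 79.21 and 103.0 to 19.73 and 20.28. Sh3bp5, a protein that binds the kinase BTK, fell from 629.5 and 645.1 to 252.3 and 263.6 (-1.02, SE 0.12, adjusted p = 7.16e-07), with 7 of 26 windows lowered. The fall at Sh3bp5 was smaller than that at Ptprm, with a similar number of tested windows.

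Ldoc1, on the X chromosome and described in the file as a regulator of NFKB signalling, was almost emptied. It went from 102.5 and 87.54 to 3.73 and 4.68 (-3.92, SE 0.35, adjusted p = 1.47e-07), and all 5 tested windows fell. The best one, chrX:61723000-61723200, had 23.24 and 27.86 control tags and no NASH tag, at least 16.2-fold lower. Tcf7l1, a transcription factor at the end of the Wnt pathway, fell from 118.3 and 106.6 to 5.32 and 12.48 (-3.33, SE 0.35, adjusted p = 9.79e-07) in all 4 tested windows. Mog, known as a myelin glycoprotein, fell from 73.94 and 64.12 to 6.94 and 5.20 (-3.03, SE 0.35, adjusted p = 3.72e-06). Its 3 lowered windows lie before the start, the best at chr17:37028895-37029098, and which gene they act on was not tested.

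The called sialyltransferases, which add sialic acid to glycans, were lowered except for St8sia4. St6galnac3 fell from 86.62 and 100.4 to 10.14 and 4.68 (-3.28, SE 0.36, adjusted p = 1.77e-06), St3gal6 from 422.5 and 406.8 to 179.7 and 169.0 (-0.96, SE 0.14) and St3gal5 from 163.7 and 140.2 to 57.60 and 50.96 (-1.18). St3gal4 (-0.70, SE 0.19) and St3gal3 (-0.74, SE 0.30) fell as well. St8sia4, chosen after its values were seen, rose from 72.88 and 58.36 to 137.1 and 123.8 (1.27, SE 0.21, adjusted p = 0.0030). Hgsnat, a lysosomal enzyme of heparan sulfate breakdown, fell from 204.9 and 180.4 to 89.08 and 74.88 (-0.94, SE 0.19), with 5 of 8 windows lowered.

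Lepr, the leptin receptor, fell from 150.0 and 138.0 to 29.34 and 35.88 (-1.83, SE 0.23, adjusted p = 4.11e-06). Hpn, a membrane serine protease, fell from 192.2 and 139.7 to 40.00 and 29.12 (-1.95, SE 0.24). Its promoter window, chr7:31111152-31111361, fell from 30.63 and 29.63 to 4.80 and 4.68 and overlapped sites of all 6 factor lists. The best Lepr window, chr4:101742096-101742304, also overlapped all 6, while those of Ptprm, Ldoc1, Tcf7l1 and Mog overlapped none. Fan1, a nuclease of crosslink repair, fell by 1.87 and Ank2, an adaptor between membrane and cytoskeleton, by 1.62. Fam167a fell by 1.40, and its windows form a stretch of 5 with those of Blk, its neighbour. Arl15, a small GTPase, fell by 1.68, but only far from its start: the sum within 50000 bp gave 0.47.

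**Figure D3:**
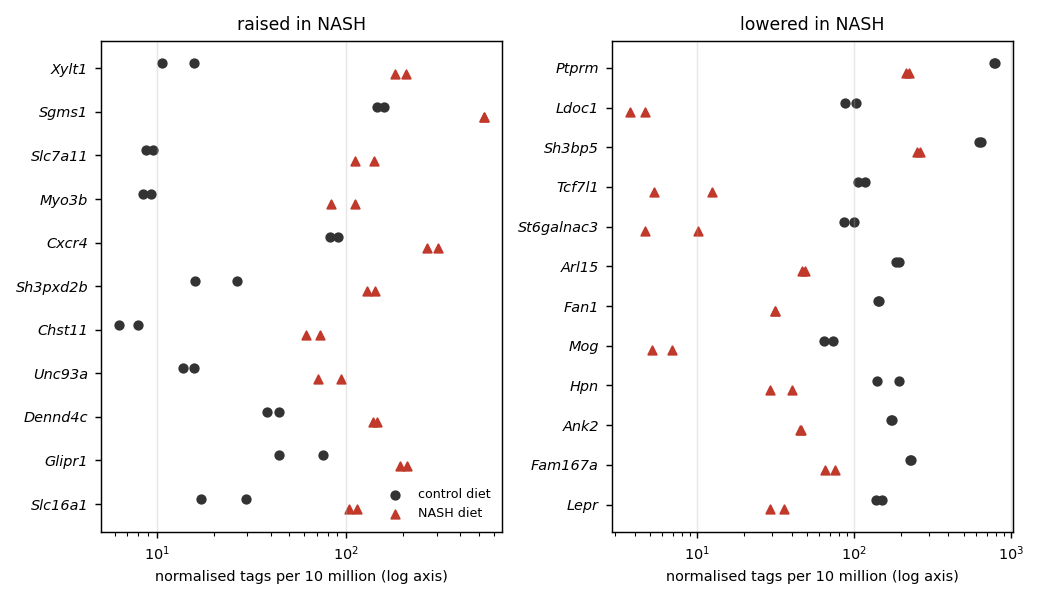
Normalised H3K27ac tags summed per gene in each library (log axis) for 11 raised genes (left) and 12 lowered genes (right) with the smallest adjusted p, circles for control and triangles for NASH libraries. The genes were picked by p-value, so the gap between the diets follows from the choice. Lrrc4c, with sums of 29827 to 55479 normalised tags, is left out.

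Some loci moved both ways. At 10 genes outside the lists windows were raised and lowered at the same nearest start. Aebp2 encodes a cofactor of the Polycomb repressive complex PRC2. A window at -1667 bp from its start (chr6:140620896-140621096) rose from 4.22 and 2.65 to 21.33 and 21.84 (2.63), whereas 8 windows at least 123663 bp downstream fell, the best from 50.70 and 64.11 to 2.13 and 2.60 (-3.85, chr6:140767009-140767209). At Dusp1, a phosphatase that switches off MAP kinases, a window over the gene (chr17:26507477-26507706) rose from 38.02 and 41.12 to 86.40 and 78.52 (1.299), and one 43275 bp away fell from 27.46 and 20.78 to 5.87 and 0 (-2.99). Errfi1, an inhibitor of the EGF receptor, had a raised window at -54170 bp from its start (2.00) and a lowered one in an intron (-1.33). The sum per gene mixes such windows.

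Gene functions were described with 50 lists by family or pathway, which together hold 3296 tested genes outside the marker lists. Of these 91 were raised and 213 lowered, against 307 and 682 of all 11222 (2.74% and 6.08%). Such counts need the call under both scalings. Under TMM alone 247 list members were raised, and under the authors' scaling alone 386 were lowered. The median change per list ran from -0.23 to 0.29, and that of the 3296 genes was 0.0092.

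**Figure D4:**
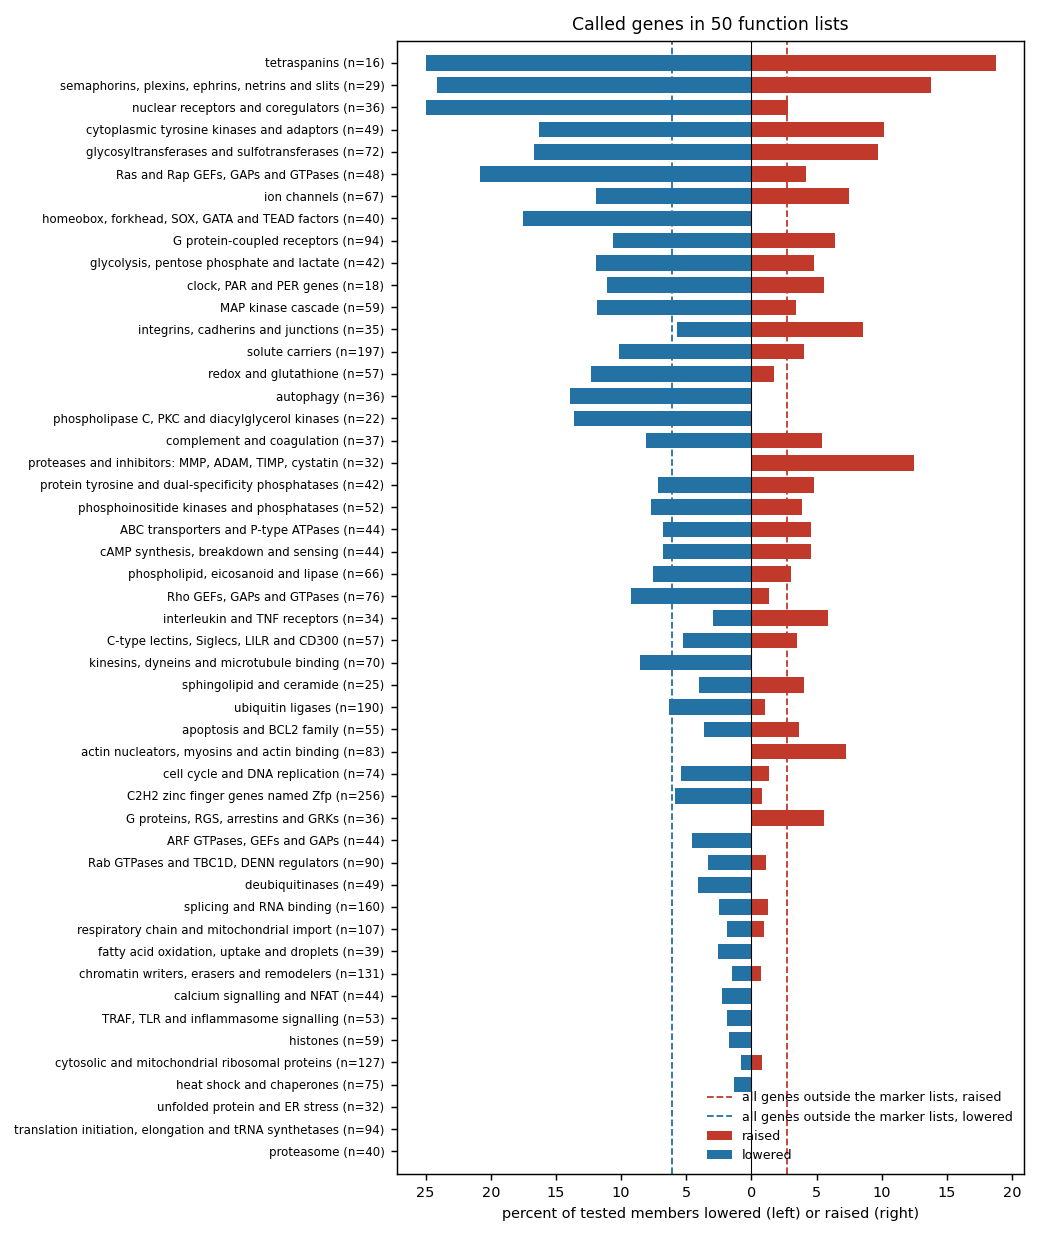
Percent of tested members raised (right) and lowered (left) in each of 50 function lists, with the number tested in brackets. Dashed lines give the shares over all 11222 tested genes outside the marker lists, 2.74% raised and 6.08% lowered. The tetraspanin list has the highest called share of the 50, and the proteasome, translation and ER stress lists have no called member.

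Of 29 semaphorins, plexins, ephrins, netrins and slits, which steer cell movement and contact, 4 were raised and 7 lowered (median -0.20). Sema4d, a ligand of plexins, rose from 16.91 and 3.97 to 66.13 and 65.00 (3.10). The semaphorin receptor Plxnc1 rose from 53.87 and 54.37 to 125.3 and 123.2 (1.47), and Nrp2, a neuropilin, from 28.53 and 26.54 to 89.60 and 67.08 (1.75). Sema6d fell from 642.2 and 604.5 to 352.0 and 347.9 (-0.55), a call lost without NASH library 1 (-0.48) or 2 (-0.62). Of 16 tetraspanins, organisers of membrane domains, 3 were raised and 4 lowered, with Tspan9 falling from 52.82 and 42.88 to 3.19 and 10.92 (-2.50). Leaving out NASH library 1 gave 0 raised and 1 lowered tetraspanin, and leaving out NASH library 2 gave 1 of each.

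Among 94 G protein-coupled receptors 6 were raised and 10 lowered (median 0.18). Beside Cxcr4, the cannabinoid receptor Cnr2 rose from 6.34 and 3.54 to 31.46 and 29.64 (2.74). Adra1a, an alpha adrenergic receptor, rose from 0 and 0.88 to 14.93 and 15.60 (3.85), and Adrb1, a beta adrenergic receptor, fell from 606.3 and 681.8 to 403.2 and 355.2 (-0.48). The Adra1a call was lost without NASH library 2 (3.74), and the Adrb1 call without either NASH library (-0.49 and -0.47). Lpar1, a receptor of lysophosphatidic acid, fell from 67.58 and 46.42 to 12.78 and 15.60 (-1.63).

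Downstream of receptors, 5 of 49 cytoplasmic tyrosine kinases and adaptors were raised and 8 lowered (median -0.05). The raised ones included 2 adaptors known from B cell receptor signalling: Lat2 went from 10.56 and 4.86 to 75.20 and 49.92 (3.21) and Blnk from 29.58 and 30.95 to 108.8 and 86.32 (1.93). The 4 tested B cell markers had 1 lowered and none raised, and that list summed to 159 to 177 tags in control and 88.0 to 90.5 in NASH libraries. The part of B cells in these values was not tested. Of 48 Ras and Rap regulators 2 were raised and 10 lowered, among them Rasgrp2, an exchange factor for Rap1, at 73.93 and 51.74 against 19.74 and 18.20 (-1.37). Under TMM alone 9 of the 48 were raised and 10 lowered, and under the authors' scaling alone 2 and 13. Ras and Rap counts were 0 and 5 without NASH library 1, and 1 and 3 without NASH library 2. The cyclic AMP list had 2 raised and 3 lowered of 44 (4.55% and 6.82%, beside 2.74% and 6.08% of all genes outside the marker lists). The sums per gene, which include the promoter windows shown above, gave the same directions: Adcy7 rose from 50.68 and 60.57 to 131.2 and 122.7 (1.47) and Adcy4 fell from 154.2 and 170.7 to 48.53 and 32.76 (-1.71).

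Of 83 actin nucleators, myosins and actin-binding genes limma called 6 raised and none lowered under both scalings (median 0.21). Of 70 kinesins, dyneins and microtubule-binding genes it called none raised and 6 lowered (8.57%, near the 6.08% of all genes). Under the authors' scaling alone 7 actin genes were lowered, and 12 microtubule genes. Under TMM alone 12 actin genes and 3 microtubule genes were raised. The absence of calls in 1 direction thus rests on asking for both scalings. At an unadjusted p under 0.05, 3 actin genes were lower and 2 microtubule genes higher, and neither edgeR nor DESeq2 called any of these. The difference between the lists was not tested. Myo1e, a membrane-bound myosin, rose from 20.07 and 15.91 to 65.60 and 56.16 (1.99), and Kif23, a kinesin of cell division, fell from 52.82 and 45.54 to 11.20 and 16.64 (-1.49). One raised actin gene, Pak3, is a single window with 682 to 1361 tags, a call lost without NASH library 2 (0.84). Without NASH library 1 the counts were 4 raised actin genes and 4 lowered microtubule genes, and without NASH library 2 they were 3 and 3.

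Glycan enzymes moved in both directions, with 7 raised and 12 lowered of 72 (median 0.01). Under TMM alone 15 were raised and 12 lowered, and under the authors' scaling alone 7 and 18. Those raised included Xylt1, Chst11 and Mgat5, a branching enzyme of N-glycans that went from 328.5 and 275.5 to 496.5 and 485.7 (0.99). Of the sialyltransferases above, St8sia4 was raised and the others lowered. Without NASH library 1 the counts were 5 and 10, and without NASH library 2 they were 4 and 5.

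Among metabolic genes, Slc7a11 was the 1 raised member of 57 redox and glutathione genes, and 7 were lowered. Gsr, glutathione reductase, fell from 347.5 and 367.0 to 218.7 and 189.8 (-0.52), Sod1, superoxide dismutase, from 282.0 and 252.5 to 157.3 and 125.8 (-0.63) and Gpx4, which reduces lipid peroxides, from 325.3 and 296.3 to 205.3 and 161.2 (-0.48). These 3 calls were each lost without either NASH library, with changes of -0.55 and -0.50 for Gsr, -0.72 and -0.55 for Sod1 and -0.58 and -0.39 for Gpx4. Leaving out NASH library 1 gave 2 lowered redox members, and leaving out NASH library 2 gave 1. Monocarboxylate carriers split as well. Slc16a1 rose, while Slc16a7 fell from 437.2 and 450.1 to 252.8 and 231.9 (-0.59) and Slc16a9 from 114.1 and 101.7 to 52.79 and 47.32 (-0.81), both lost without either NASH library (-0.57 and -0.61, and -0.81 and -0.81).

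Among lipid enzymes, Lpcat1, which remodels phosphatidylcholine, rose from 78.15 and 44.66 to 186.7 and 155.5 (1.80), and Ptgis, prostacyclin synthase, fell from 119.4 and 116.7 to 26.66 and 29.64 (-1.75) with 4 of 7 windows lowered. Of 36 autophagy genes none was raised by limma under both scalings, by edgeR or by DESeq2. With limma 3 were raised under TMM alone, and 2 at an unadjusted p under 0.05. Limma lowered 5, among them Map1lc3a, a coat protein of autophagosomes, at 162.7 and 128.2 against 59.20 and 54.08 (-1.05). Without NASH library 1 there were 2 lowered autophagy genes, and without NASH library 2 there was 1. Of 39 genes for fatty acid uptake, oxidation and droplets outside the marker lists, none was raised by limma under both scalings, by edgeR or by DESeq2. With limma 2 were raised under TMM alone, and 1 at an unadjusted p under 0.05. Limma lowered 1.

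Of 36 nuclear receptors and coregulators 1 was raised and 9 lowered (median -0.21). Nr2f1, an orphan receptor, fell from 25.36 and 29.62 to 2.14 and 1.56 (-3.04), and Thra, a thyroid hormone receptor, from 59.15 and 38.91 to 13.33 and 11.96 (-1.56). Within the NR4A family of early response receptors, Nr4a1 fell from 276.7 and 218.9 to 114.7 and 108.2 (-0.85), and Nr4a2 rose from 64.43 and 34.48 to 102.4 and 109.7 (1.44), the latter lost without NASH library 2 (1.31). Of 40 homeobox, forkhead and related developmental factors none was raised by limma under both scalings, by edgeR or by DESeq2. With limma 2 were raised under TMM alone, and 2 at an unadjusted p under 0.05. Limma lowered 7, with Meis1 at 28.52 and 26.97 against 8 and 3.64 (-1.87). With either NASH library left out 4 nuclear receptors were lowered, and 5 (library 1) or 3 (library 2) developmental factors.

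Genes such as Ptprm, Adcy4, Nr2f1 and Meis1 are also active in endothelium. The 4 tested endothelial markers had 2 lowered, and the list summed to 137 to 192 tags in control and 110 to 112 in NASH libraries. Their part in the result was not tested. Fewer cells of a type and less acetylation per cell cannot be told apart in such bulk libraries. The Kupffer cell identity list, which sums to 9202 to 9273 tags in control and 6195 to 6866 in NASH libraries, had 14 of 37 lowered and none raised.

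Among genes of the daily clock and its output 3 of 18 changed. Nfil3, a repressor of clock output genes, rose from 33.81 and 7.07 to 132.8 and 85.28 (2.97) in all 5 tested windows, a stretch of 20.5 kb. Dbp, the activator that binds the same D-box letters, fell from 273.6 and 323.2 to 170.7 and 138.3 (-0.66), and Nr1d1, the REV-ERB repressor, from 276.7 and 294.9 to 158.4 and 173.7 (-0.50). Dbp was lost without NASH library 1 (-0.74) or 2 (-0.59), and Nr1d1 without control library 2 (-0.34) or NASH library 1 (-0.35) or 2 (-0.64). The labels give no time of day.

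Cdkn1a, the p21 inhibitor of cyclin-dependent kinases, rose from 82.38 and 51.74 to 137.1 and 127.4 (1.29), and Gadd45a, a stress gene, from 17.98 and 9.72 to 57.60 and 55.12 (2.29). Mcm10 and Cdk1, which act in replication and mitosis, fell from 258.8 and 264.4 to 115.2 and 109.2 (-0.93) and from 48.59 and 37.14 to 13.87 and 12.48 (-1.33). The cell cycle list had 1 raised and 4 lowered of 74 (1.35% and 5.41%), no more than the 2.74% and 6.08% of all genes.

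Machinery common to all cells was seldom called. None of 40 proteasome genes, 94 translation factors and 32 ER stress genes was called by limma or DESeq2 under both scalings, and edgeR called 1 translation factor lowered. Under the authors' scaling alone limma lowered 2, 9 and 1 of them, and under TMM alone it raised 0, 1 and 4. At an unadjusted p under 0.05 limma had 0 higher and 2 lower proteasome genes, 1 and 6 translation factors, and 0 and 1 ER stress genes. Of 127 ribosomal protein genes 1 was raised and 1 lowered, and of 131 chromatin regulators 1 and 2. Under TMM alone 5 ribosomal genes and 5 chromatin regulators were raised, and under the authors' scaling alone 5 and 9 were lowered. Without control library 2 there were 13 lowered chromatin regulators, and the cause was not tested.

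Without NASH library 1 there were 194 raised and 578 lowered windows, and 135 raised and 364 lowered genes. Without NASH library 2 there were 176 and 542 windows, and 134 and 283 genes. The 28 genes with the smallest p-values or the most windows were picked from these same libraries. Calls they keep with a NASH library left out therefore follow in part from the choice. In these fits the lone NASH library is assumed to vary like the control pair. Lrrc4c lost its call (1.19 without library 1 and 0.80 without library 2).

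**Figure D5:**
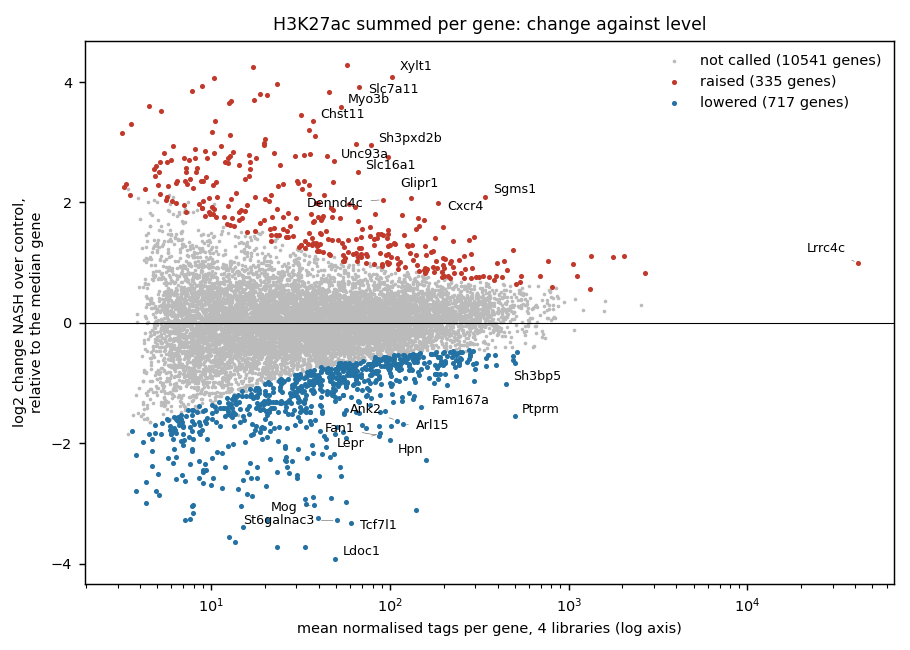
Log2 change per gene relative to the median against the mean of the 4 libraries in normalised tags (log axis), for 11593 tested genes. Red points are 335 raised and blue points 717 lowered genes, and labels mark 12 raised and 12 lowered genes, ranked by adjusted p outside the marker lists.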

How the data were processed

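H3K27ac was measured by ChIP-seq in 2 control and 2 NASH libraries of Kupffer cells. Bowtie2, HOMER, DESeq2 and the builds mm10 and GRCm38 are named in the submitters' processing notes, without their roles. Per the file headers, the deposited signal of each window is its tag count scaled to 10000000 tags, with HOMER's nearest gene. Multiplying by the header totals gave whole tags for all values within 0.02. The scores of the deposited LXR, ATF3 and P300 site lists were not compared, and sites were only overlapped by at least 1 bp. Tags without a gene name were 0.058% to 0.132%. Per-sample columns left unused were 0.

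Windows and gene sums that passed filterByExpr were fitted on log2(value + 1) with limma 3.58.1 (trend, Benjamini-Hochberg adjustment) in R 4.3.3, under the authors' scaling and with TMM factors from edgeR 4.0.16, and both had to give the call. Self-tests ran on simulated counts with a set scatter between libraries, with changes placed in features of more tags. A log2 change of 1 was recovered in 3 of 100 windows and 10 of 100 genes, and a change of 2 in 76 and 89. The window threshold of 1 by itself bars many windows with a true change of 1. No covariate was used. Named were, outside marker lists and unnamed genes, the 12 genes per direction of smallest adjusted p, the 8 with most called windows, 6 with windows both ways and up to 3 per function list and direction. Others named were chosen after their values were seen. The members and lists were chosen with earlier results of these data known. Alternatives were other scalings, pseudocounts, filters, edgeR, DESeq2 1.42.0, a replicate block, distance limits, site centres, and leaving out each library. Window sequences were not analysed here. RefSeq promoters were searched instead, whole and inside the window. Intervals and floors cover counting error only.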

Additional observations from a re-analysis of the deposited data

How the results depend on the processing

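Raised windows numbered 720, against 1191 with TMM alone, 136 without a filter, 233 with DESeq2 and 176 to 841 when 1 library was left out. Lowered windows numbered 902, against 1651 with the authors' scaling alone, 151 without a filter, 206 with DESeq2, and 542 to 1091. Raised genes numbered 335, against 841 with TMM alone, 223 without a filter, 181 with DESeq2, 81 on windows within 1000 bp of a start, and 134 to 385. Lowered genes numbered 717, against 1278 with the authors' scaling alone, 287 with DESeq2, 159 within 1000 bp, and 283 to 894. Members of the function lists numbered 91 raised, against 247 with TMM alone, 30 within 1000 bp and 37 to 107. Lowered members numbered 213, against 386 with the authors' scaling alone, 46 within 1000 bp and 77 to 275. The low ends came without a NASH library, and fewer windows or samples enter the distance and left-out settings. For the other settings the cause was not tested. With edgeR the counts were 792 and 1124 windows and 343 and 764 genes.

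Replicate numbers are shared between the diets, and deviations of same-numbered libraries correlated at 0.033 over 22470 windows. Whether same-numbered libraries share a batch was not tested. With the replicate block there were 1053 raised and 1464 lowered windows, 493 and 840 genes, and 140 raised members of the function lists.

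The direction changed for Arl15 (0.29 within 1000 bp, 0.47 within 50000 bp), Nenf (-0.88 within 1000 bp), Dusp3 (0.20 within 1000 bp), Lrrc8c (1.22 and 0.034), Dync1i2 (0.27 and 0.30) and Ddx11 (0.28 and 0.056). Of the 28 genes with the smallest p-values or the most windows, Dennd4c, Fan1, Hgsnat and St3gal6 lost their call within 1000 bp of the start, and 12 kept it. Without the satellite window, chosen after seeing the data, there were 710 and 877 windows and 331 and 710 genes. The window-trimming alternative for motifs was not run, since the searched sequences were promoters. With 2 libraries per diet and 9468035 tags in the shallowest, small changes in windows of few tags were not detectable. In simulated counts most log2 changes of 1 were missed in features with more tags as well. An uncalled window or gene is therefore not shown to be unchanged.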

Other observations

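A few loci outside the named genes also stood apart, and all were chosen after their values were seen. Windows near Mir34a, the gene of a microRNA known as a p53 target, summed to 10.57 and 3.54 normalised tags in control and 80.01 and 88.92 in NASH libraries (log2 change 3.84, SE 0.39), with 4 consecutive windows raised at chr4:150048121-150064536. Mir30a went from 80.28 and 45.98 to 1.06 and 6.24 (-3.71, SE 0.50). Both values are sums of windows nearest to the gene, not levels of the microRNA. Pdpn, the gene of podoplanin, went from 1.06 and 0 to 14.40 and 20.28 (3.94, SE 0.59) in its 1 tested window.

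Raised windows made up 1.01% of those tested on chromosome 11 and 2.89% on chromosome 17, and lowered windows 1.44% on chromosome 3 and 3.75% on chromosome 14. These shares are given as values, without a test.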
